A study of Mus musculus with 2 samples.

Results

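The miR-99/100 and miR-125 miRNAs of the mouse, which are encoded in clusters with let-7 genes, were read in the embryonic 3rd mammary gland and in flank tissue beside it, labelled as inter mammary gland region and called the flank below. They are 5 of the 696 miRNAs on the array (mmu-miR-99a, mmu-miR-99b, mmu-miR-100, mmu-miR-125a-5p and mmu-miR-125b-5p, written without the species prefix from here on) and were chosen by their names. Both regions were dissected at E13.5 from untreated embryos of ICR mice, an outbred strain, when the mammary epithelium has formed a bud in its mesenchyme. The flank sample lies between the 3rd gland and the 4th. From each region 100 ng of total RNA, carrying the dye Cy3, was hybridized to 1 Agilent 1-colour miRNA array, and the arrays shared their slide and scan. How many embryos each RNA came from is not given in the sources used here. With 1 array per region no difference has a replicate check and no test was run, so the errors below are over the spots of an array and are technical. In such tissue RNA, fewer cells of a type and less RNA per cell cannot be told apart.

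A miRNA pairs with messenger RNAs mainly through its seed, bases 2 to 8 from the 5′ end, and lowers their translation and stability. miR-125 is the mammalian counterpart of lin-4, which together with let-7 times larval development in worms, and a well-known target of both in mammals is Lin28, a stem cell factor that itself blocks the maturation of let-7. miR-99 and miR-100 form an old family that is best known for repressing Mtor, a kinase that drives growth. One ancestral cluster of all these genes was copied during vertebrate evolution, so that each mouse copy holds a miR-99 or miR-100 gene, a let-7 gene and a miR-125 gene.

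The mature sequences, from RefSeq (GRCm38.p6), are shown because the members fall into 2 seed groups and because some differ so little that their probes may share targets. Capitals mark the seed. The miR-99/100 group reads as follows.
miR-99a (chr16:77598940-77598961, + strand): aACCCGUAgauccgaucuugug
miR-100 (chr9:41531437-41531458, + strand): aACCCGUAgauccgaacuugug
miR-99b (chr17:17830194-17830215, + strand): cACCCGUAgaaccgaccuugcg
The miR-125 group, with miR-125b made from 1 gene on chromosome 9 and 1 on chromosome 16, reads as follows.
miR-125b-5p (chr9:41581940-41581961 and chr16:77646279-77646300, + strand): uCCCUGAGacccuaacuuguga
miR-125a-5p (chr17:17830817-17830840, + strand): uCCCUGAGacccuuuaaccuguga
Counted from the 5′ end, miR-99a and miR-100 differ by the single substitution U16A, and share 21 of 22 bases. miR-99a and miR-99b differ by 4 substitutions, A1C, U11A, U16C and U21C. miR-125a-5p and miR-125b-5p share their first 13 bases. The files used here give no probe sequences, and how far a probe of one member reads another was not tested.

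Each member was read by 2 probes of 10 spots. All 100 spots of the members were well above background on each array, and all 5 members were detected in both regions, as were 284 miRNAs in all. In the scaled signals all 5 ratios, 3rd mammary gland over flank, were above 1, and so was the ratio of each of their 10 probes. The only exception among the alternatives was miR-100, at -0.0045 on the log2 scale. There a probe entered the scaling only with all its spots well above background. Among all 284 miRNAs 57.7% had a ratio above 1. The median log2 ratio of the members was 0.28, a fold of 1.21, and that of the 284 miRNAs was 0.05. None of the 5 was at least 1.5-fold higher, where the background was 2.11% of the 284 miRNAs (6 miRNAs), and none was at least 1.5-fold lower, where it was 9.15% (26 miRNAs). miR-99a came nearest to the threshold, then miR-125b-5p, miR-125a-5p, miR-99b and miR-100.

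**Figure D1:**
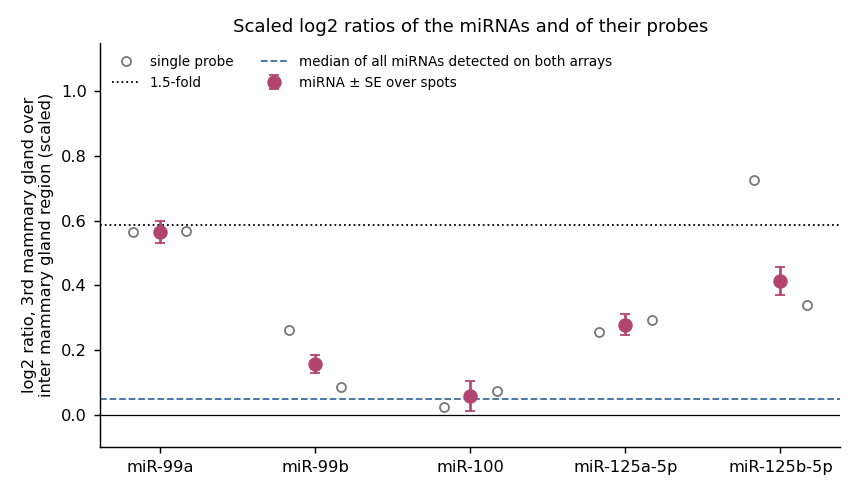
Scaled log2 ratios, 3rd mammary gland over flank, on the y axis for the 5 miRNAs on the x axis. Filled points are the miRNA with its SE over spots, open points its 2 probes, the dotted line 1.5-fold and the dashed line the median of the 284 miRNAs detected on both arrays. miR-99a (0.57) lies highest, just under the 1.5-fold line, miR-100 (0.06) lies at the dashed line, and only the first probe of miR-125b-5p (0.73) is past the dotted line.

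Of the miR-99/100 group, miR-99a differed most between the regions. The signals given here are background-subtracted intensities before scaling. The spots of the first miR-99a probe lay between 765 and 943 in the 3rd mammary gland, with a median of 834, and between 495 and 561 in the flank, with a median of 519. Those of the second lay between 268 and 336 (median 306) and between 167 and 202 (median 187). The spots of the regions did not overlap for either probe, before or after scaling, and at every matched array position the spot of the 3rd mammary gland was the brighter (10 of 10 and 9 of 9). The scaled log2 ratio was 0.57 ± 0.03 (SE over spots), a fold of 1.48, and the 2 probes agreed closely (0.56 and 0.57). This was the 8th highest ratio of the 284. The share of all probes whose spots did not overlap was not counted, here or for the miRNAs below. Before scaling there was also no overlap for any probe of miR-140*, miR-107 and miR-361, which are no members. A lack of overlap can therefore not be read as particular to the members.

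miR-100, which differs from miR-99a by 1 base, was nearly level between the regions after scaling. Its first probe gave 368 to 455 in the 3rd mammary gland (median 428) and 324 to 421 in the flank (median 370). The second gave 803 to 1098 (median 899) and 724 to 909 (median 817). The spots of the regions overlapped for both probes, and the 3rd mammary gland was the brighter at 10 of 10 matched positions for each before scaling and at 6 of 10 and 7 of 10 after it. The log2 ratio was 0.06 ± 0.05 (SE over spots), a fold of 1.04, so that the regions differed by little more than the error over spots. On the log2 scale the ratio of miR-99a exceeded that of miR-100 by 0.51 ± 0.06 (SE over spots), a value that no scaling by 1 factor per array can move.

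miR-99b lay between them. The spots of its first probe, at 553 to 640 (median 600) in the 3rd mammary gland and 427 to 491 (median 455) in the flank, did not overlap. Those of its second probe, at 773 to 965 (median 856) and 693 to 792 (median 767), overlapped slightly before scaling. After scaling only the second probe had overlapping spots, and there the 3rd mammary gland was the brighter at 9 of 10 matched positions. The log2 ratio was 0.16 ± 0.03 (SE over spots), a fold of 1.11, with 0.26 for the first probe and 0.09 for the second. It was below that of miR-99a by 0.41 ± 0.04 and above that of miR-100 by 0.10 ± 0.05 on the log2 scale, the second of which is under 2 SE.

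**Figure D2:**
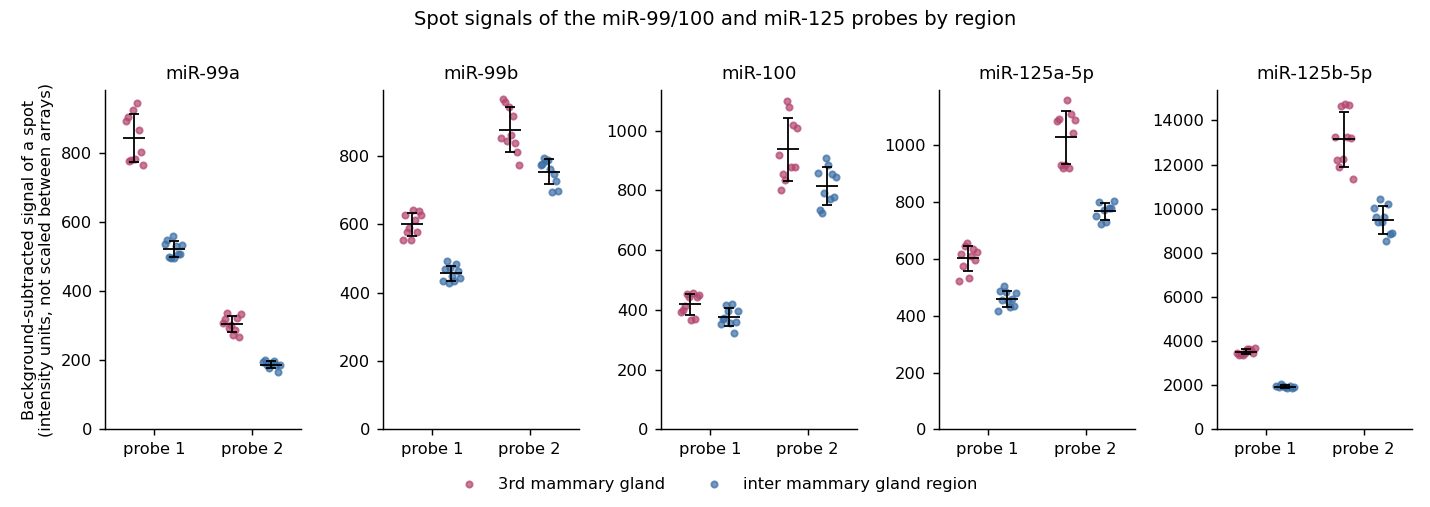
Background-subtracted signal of each spot, in intensity units before scaling, for the 2 probes of each miRNA (x axis). Red points are spots of the 3rd mammary gland, blue points those of the flank, and bars the mean ± SD over spots. The clouds are apart for both probes of miR-99a, miR-125a-5p and miR-125b-5p and overlap for both probes of miR-100. Heights cannot be compared between probes, and between regions they still hold the difference in brightness of the arrays. The scaling divided the 3rd mammary gland array by 786 and the flank array by 719. After it the spots of the first probe of miR-125a-5p and the second of miR-125b-5p overlapped.

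Of the miR-125 group, miR-125b-5p had the larger ratio, with probes that disagreed in size. Its first probe gave 3376 to 3706 in the 3rd mammary gland (median 3473) and 1874 to 2039 in the flank (median 1943). Its second gave 11327 to 14737 (median 13232) and 8531 to 10444 (median 9517). Before scaling the regions did not overlap for either probe, and after scaling they overlapped for the second. At all matched positions, 9 of 9 and 10 of 10, the spot of the 3rd mammary gland was the brighter. The log2 ratio was 0.73 ± 0.02 for the first probe, a fold of 1.65, and 0.34 ± 0.05 for the second, a fold of 1.26 (SE over spots). The miRNA as a whole had 0.41 ± 0.04, a fold of 1.33, which lies nearer the second probe because signals, not ratios, were averaged. The gap of 0.39 between these probes was wide. Among the 244 miRNAs for which more than 1 probe was detected in each region, 9 had a gap at least as large, miR-125b-5p itself included. The median gap was 0.08. No miRNA spot on either array was saturated.

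miR-125a-5p gave 520 to 656 (median 614) with its first probe in the 3rd mammary gland and 415 to 505 (median 456) in the flank. With the second it gave 918 to 1156 (median 1063) and 721 to 802 (median 775). The regions did not overlap before scaling, and after scaling the spots of the first probe did. The log2 ratio was 0.28 ± 0.03 (SE over spots), a fold of 1.21, with 0.26 and 0.29 for the probes. That of miR-125b-5p was larger by 0.13 ± 0.05, a difference smaller than the gap between the probes of miR-125b-5p.

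The clusters allow the members to be read by gene. In the RefSeq annotation Mir99a, Mirlet7c-1 and Mir125b-2 follow each other on chromosome 16, with starts up to 47.3 kb apart, and lie inside no other annotated gene. Mir100, Mirlet7a-2 and Mir125b-1 have starts up to 50.5 kb apart on chromosome 9, inside the long noncoding RNA gene Mir100hg. Mir99b, Mirlet7e and Mir125a have starts up to 0.624 kb apart on chromosome 17, inside the span of the protein-coding gene Spaca6. miR-99a, miR-100, miR-99b, let-7e and miR-125a-5p each have 1 gene in this annotation. The array cannot tell apart the copies of miR-125b-5p from the chromosome 9 and chromosome 16 genes, and let-7a and let-7c also come from more than 1 gene.

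By single genes, the miRNA of chromosome 16 (miR-99a, log2 ratio 0.57) had a larger ratio than that of chromosome 9 (miR-100, 0.06). The let-7 miRNAs of these clusters had the same order, let-7c with 0.21 ± 0.04 and let-7a with -0.05 ± 0.04 (SE over spots), a difference of 0.26 ± 0.06. The ratio of let-7a was above 0 with no scaling (0.08) and after quantile normalization, where it was 0.25 and that of let-7c was 0.36. miR-125b-5p, which both clusters make, lay between miR-99a and miR-100. It was below miR-99a by 0.15 ± 0.05 on the log2 scale, or by 0.06 after normexp, a background correction with an offset that draws dim signals toward each other, and above miR-100 by 0.36 ± 0.06. Its place below miR-99a rests on its second, brighter probe (0.34), since its first (0.73) was above both probes of miR-99a. After quantile normalization it was above miR-99a by 0.21 instead, since that method moved miR-125b-5p alone of the 5 by more than its SE. The 3 miRNAs of the chromosome 17 cluster were close to each other, at 0.16 for miR-99b, 0.24 for let-7e and 0.28 for miR-125a-5p, each with an SE of 0.03 to 0.04. let-7e exceeded miR-99b by 0.09 ± 0.05, and miR-125a-5p exceeded let-7e by 0.03 ± 0.05 and miR-99b by 0.12 ± 0.04. Both differences from miR-99b are smaller than the gap of 0.18 between its probes.

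**Figure D3:**
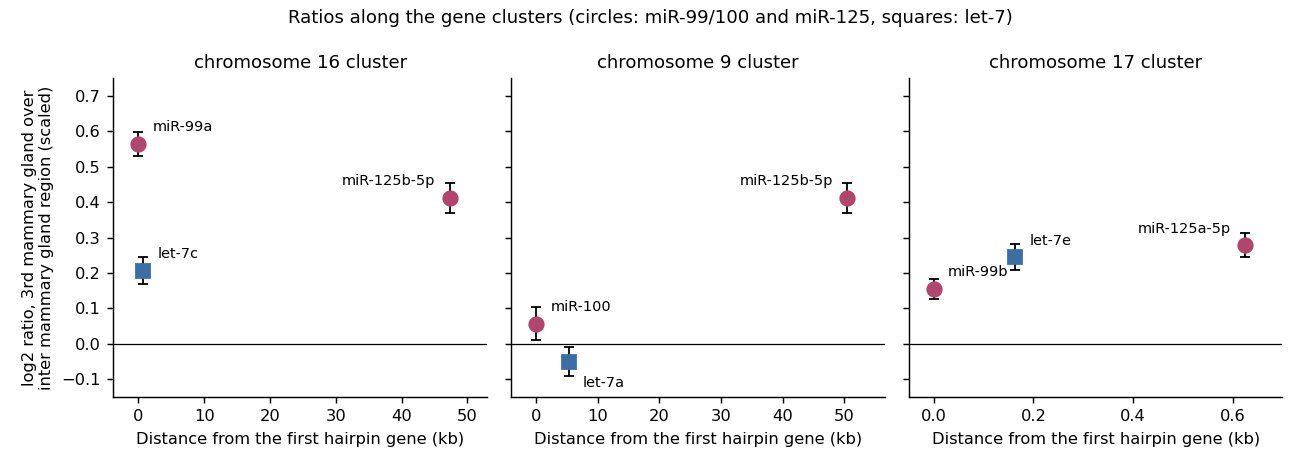
Scaled log2 ratio, 3rd mammary gland over flank, on the y axis against the distance of each hairpin gene from the first gene of its cluster in kb on the x axis. Circles are miR-99/100 and miR-125, squares let-7, and bars the SE over spots. The miRNAs of chromosome 17 lie between 0.16 and 0.28, while miR-99a (0.57) and miR-100 (0.06) stand far apart. miR-125b-5p is drawn in both clusters that encode it, with the same value.

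Of the other strands of these hairpins the array reads 4, of which miR-125a-3p and miR-99b* were detected in both regions and miR-125b-3p and miR-125b* in neither. miR-125a-3p (chr17:17830855-17830876, + strand) is shown since it comes from the same hairpin as miR-125a-5p and has another seed, in capitals.
miR-125a-3p: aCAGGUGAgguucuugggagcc
Unlike its partner it was dimmer in the 3rd mammary gland. Its 4 probes of 5 spots each had means of 22.4, 31.4, 37.3 and 57.5 in the 3rd mammary gland and of 33.3, 49.7, 50.6 and 73.9 in the flank, before scaling. The spots of the regions did not overlap for 3 of the 4 probes. The other, dimmest probe was not detected in the 3rd mammary gland, where none of its 5 spots was called well above background. All 20 spots in each region were brighter than the brightest negative control spot of their array, at 17.3 for the 3rd mammary gland against 19.2 for the flank. The scaled log2 ratio was -0.61 ± 0.04 (SE over spots), 1.53-fold lower in the 3rd mammary gland and the 25th lowest of the 284. It was under 1.5-fold with no scaling (-0.48), with every probe in the percentile (-0.45), with the median as the scale (-0.49), in the deposited table (-0.45), after quantile normalization (-0.49), with the brightest probe (-0.49) and after normexp (-0.21).

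The ratio of miR-125a-5p exceeded that of miR-125a-3p by 0.89 ± 0.05 on the log2 scale. The difference was 0.46 after normexp and 0.87 over the probes detected on both arrays. For miR-99b*, 1 probe of 4 was detected, with a mean before scaling of 41.3 ± 4.33 (SD over 5 spots) in the 3rd mammary gland against 38.3 ± 5.14 in the flank, and the spots overlapped. After scaling the log2 ratio of this probe was -0.02 ± 0.11 (SE over spots), and that of the miRNA over all 4 probes was -0.30 ± 0.14. None of the spots of miR-125b-3p and miR-125b* was well above background on either array.

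**Figure D4:**
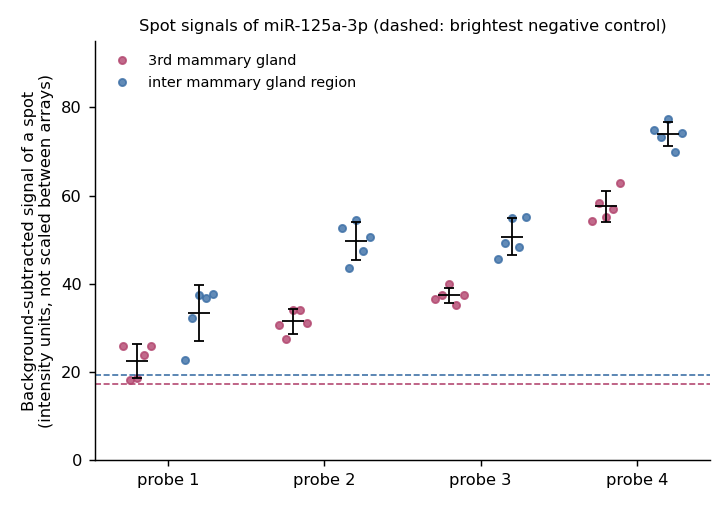
Background-subtracted signal of each miR-125a-3p spot, in intensity units before scaling, for its 4 probes (x axis). Red points are spots of the 3rd mammary gland, blue points those of the flank, bars the mean ± SD over 5 spots, and dashed lines the brightest negative control spot of each array (17.3 and 19.2). The 3rd mammary gland is the dimmer for each probe, and only the spots of the first probe overlap.

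Of the 445 array miRNAs with a RefSeq sequence under their name, miR-351 is the only other one with the seed of a member. It is encoded on chromosome X and shares the first 8 bases of miR-125b-5p.
miR-351 (chrX:53053315-53053338, - strand): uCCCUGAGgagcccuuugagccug
Its brightest probe had a mean of 314.9 in the 3rd mammary gland against 261.6 in the flank before scaling, with no overlap of the spots, and the log2 ratio of the miRNA was 0.13 ± 0.03 (SE over spots). This is below the value of both miR-125 members.

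The 9 members of the let-7 family detected on both arrays, miR-98 included, had a median log2 ratio of -0.05. This is the value of let-7a, and it is above 0 with no scaling. let-7a was also above 0 under the other alternatives named for it above. let-7e and let-7c had the highest ratios among them, and let-7i (-0.46) and let-7d (-0.39) the lowest. All of let-7e, let-7c and let-7a have a gene in the clusters, so the let-7 miRNAs of the clusters were not all high. None of the 9 was past 1.5-fold. let-7a* was detected in both regions by 1 probe of 4, with means of 44.5 ± 3.29 and 30.4 ± 3.13 (SD over 5 spots), and let-7c-1* in neither. The miRNAs with ratios nearest to the median of the members were miR-140* (0.28), miR-107 (0.28) and miR-361 (0.28). With 2 arrays this likeness rests on 1 ratio for each miRNA.

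**Figure D5:**
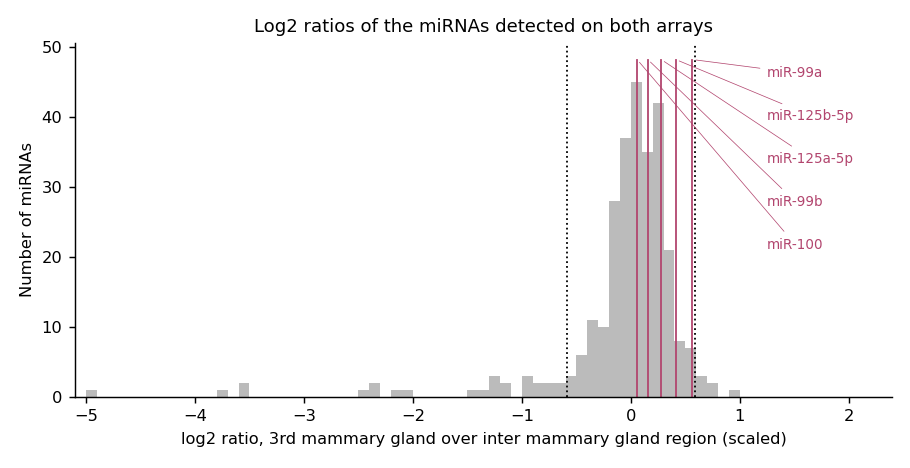
Histogram of the scaled log2 ratios of the 284 miRNAs detected on both arrays (x axis, in bins of 0.1), with the number of miRNAs on the y axis. Red lines mark the 5 miRNAs and dotted lines 1.5-fold in each direction. All 5 lie to the right of 0, from miR-100 near the top of the peak (0.06) to miR-99a in its upper tail (0.57), and inside the dotted lines.

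The call at 1.5-fold depended on the scaling. With no scaling the median log2 ratio of the 284 miRNAs moved from 0.05 to 0.18, and miR-99a was 1.62-fold higher, past the threshold together with 5.28% of the miRNAs (15 higher and 23 lower in all). miR-125b-5p was then 1.46-fold higher. miR-99a also passed with the 75th percentile of all probes, where 6.69% passed (19 higher and 22 lower), with the median of the detected probes, where 5.28% did (15 and 23), and with the deposited table, where 7.04% did (20 and 21). After quantile normalization miR-125b-5p passed in place of miR-99a, with 4.93% of the miRNAs (14 higher and 22 lower). Relative to the median of the 284 miRNAs, miR-99a was higher by 0.39 to 0.55 on the log2 scale under the 12 alternatives that applied, miR-125b-5p by 0.32 to 0.60 and miR-125a-5p by 0.13 to 0.28. miR-99b ranged from -0.02 to 0.11, below the median after quantile normalization alone, and miR-100 from -0.13 to 0.06, below it after quantile normalization and with the median of the spots.

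Markers of tissues were also read, and of those detected in both regions only striated muscle miRNAs were past 1.5-fold. Of the 7 epithelial miRNAs listed (the miR-200 family, miR-203 and miR-205) all were detected in both regions, with log2 ratios from -0.31 to 0.51, a median of 0.34 and a summed scaled signal of 13.9 in the 3rd mammary gland against 13.3 in the flank. Of the 7 striated muscle miRNAs, 4 were detected in both regions and all 4 were at least 1.5-fold lower in the 3rd mammary gland, with a median of -1.24 and summed signals of 2.14 and 5.09, while miR-499 was detected in the flank alone and miR-208a and miR-208b in neither. Of 7 mesenchymal miRNAs 6 were on the array, and the 5 detected in both regions had ratios from 0.06 to 0.32, with summed signals of 35.5 and 29.1, and miR-145 was detected in neither. The 3 red blood cell miRNAs ranged from -0.39 to 0.44 with summed signals of 7.40 and 5.50, and the 3 detected of 5 neuronal ones from -0.57 to 0.19 with 1.10 and 1.07, miR-124 and miR-9 being detected in neither. The part of these tissues in the ratios of the miR-99/100 and miR-125 miRNAs was not tested.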

How the data were processed

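miRNAs were measured on Agilent 1-colour microarrays, 1 array for each region, and the arrays were grouped by their labels. Per the file headers, the authors used Feature Extraction 10.7.3.1 on the scanned images. The deposited spot intensity is linear and background-subtracted, with no normalization across arrays. The deposited table repeats the total signal that Feature Extraction gives each miRNA, also an intensity, with 0.1 as a stand-in where a miRNA was not called detected. The deposited flags of the spots, which are of another kind than the intensity, mark outliers and spots well above background. Normalization in GeneSpring GX, which the methods describe, left no values that were used here.

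Control spots and outlier spots (1.67% of the miRNA spots on the 3rd mammary gland array and 2.51% on the array of the inter mammary gland region, called the flank) were dropped. Spots were averaged by probe, the values of an array were scaled to the 75th percentile over probes detected in both regions, the probes of a miRNA were averaged, and the log2 ratio was taken as 3rd mammary gland over flank. Detection of a probe needed over 50% of spots well above background, and that of a miRNA needed 1 such probe. Standard errors (SE) were propagated from the spots. They are technical, and precision is limited by the number of arrays. With 1 array per region no test was run. The fold threshold was 1.5.

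The miRNAs named were the 5 members, the other strands of their hairpins, the let-7 miRNAs of the same clusters, miRNAs that share bases 2 to 8 with a member, and the 3 other miRNAs with the nearest ratios. The members and lists were chosen with earlier results of these data known. Mature sequences, positions and gene order came from RefSeq (GRCm38.p6). All 5 members matched, as did 445 of the 696 array names when names with and without an arm suffix were allowed. The grid of the array names another assembly, and its coordinates were not used. The steps were tested on simulated spots with larger changes than those of the members and no disagreement between the probes of a miRNA. That test does not cover ratios of the size reported here. Alternatives covered scaling, signal column, background correction (normexp with an offset of 50, on the median pixel signal), detection, outliers, probes, spots, dim miRNAs and threshold. Scripts ran in R 4.3.3 (limma 3.58.1, for normexp) and Python 3.11.15 (numpy 2.4.6, pandas 2.3.3, matplotlib 3.10.9).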

Additional observations from a re-analysis of the deposited data

How the results depend on the processing

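No paired analysis was possible because only 1 array was made for a region. The log2 ratios of miR-99a, miR-99b, miR-125a-5p and miR-125b-5p were above 0 under each of the 12 alternatives that applied to them, and all 5 miRNAs were detected on both arrays under each. The values below moved by more than their SE over spots. Where a scaling changed a value, this followed from its construction. The detection rule with all spots well above background enters these ratios only through the scaling. It moved the median log2 ratio of all detected miRNAs by -0.061 and left the members unchanged relative to it. For the rest the cause was not tested. For miR-99a, miR-99b, miR-100, miR-125a-5p, miR-125b-5p and the median of the 5, in this order, the log2 ratios were 0.70, 0.29, 0.19, 0.41, 0.54 and 0.41 with no scaling. They were 0.72, 0.31, 0.22, 0.44, 0.57 and 0.44 when every probe entered the 75th percentile. Scaled by the median in place of that percentile they were 0.68, 0.27, 0.18, 0.40, 0.53 and 0.40, and in the deposited table they were 0.73, 0.32, 0.22, 0.44, 0.57 and 0.44. Where a probe counted as detected with all its spots well above background they were 0.50, 0.094, -0.0045, 0.22, 0.35 and 0.22. With the scaled total signals, miR-99a had 0.53, miR-99b 0.12, miR-125a-5p 0.24 and the median 0.24. After normexp miR-99a had 0.47, after quantile normalization miR-125b-5p had 0.77, with the brightest probe miR-99b had 0.087 and miR-125b-5p 0.34, and with the median of the spots miR-99b had 0.11.

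Between miRNAs, the difference of miR-125b-5p minus miR-99a was 0.21 after quantile normalization, -0.062 after normexp and -0.23 with the brightest probe. That of miR-125b-5p minus miR-100 was 0.74 after quantile normalization and 0.27 with the brightest probe, and that of miR-125a-5p minus miR-99b was 0.20 with the brightest probe and 0.19 with the median of the spots. The difference of miR-99a minus miR-100 was 0.42 after normexp. The difference between the strands of miR-125a was 0.46 after normexp, 0.78 with the brightest probe, 0.79 after quantile normalization and 0.94 with the median of the spots. It moved by less than its SE, to 0.87, over the probes detected on both arrays, a setting added once the data had been seen. The differences of miR-99a minus miR-100 and between the strands were added then as well.

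The number of the 5 miRNAs at least 1.5-fold higher, 0 here, was 1 with no scaling, with every probe in the percentile, with the median and in the deposited table (miR-99a), and 1 after quantile normalization (miR-125b-5p). None was 1.5-fold lower under any alternative. Of all miRNAs detected on both arrays, the number at least 1.5-fold higher, 6 here, was 15 with no scaling and with the median, 19 with every probe in the percentile, 20 in the deposited table, 14 after quantile normalization, 13 with the detection call of the software, 2 after normexp and 0 at a 2-fold threshold, where 16 were lower in place of 26.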
